A study of Mus musculus with 13 samples.

Results

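The nuclear genes of the mitochondrial respiratory chain and of ATP synthase were followed through 7 sorted cell subsets of mouse bone marrow cultures. They were chosen by symbol: every gene whose name begins with Nduf, Uqcr, Atp5 or Cox4 to Cox8, and Sdha, Sdhb, Sdhc and Sdhd. This gave 92 of the 24532 genes in the deposited tables, by a rule that reads symbols only but was set with earlier results of these data known. By role they were 7 core subunits, 29 accessory subunits and 7 assembly factors of complex I, the 4 subunits of complex II, 8 genes of complex III, 20 of complex IV, 5 of the F1 part and 10 of the Fo part and stalk of ATP synthase, and 2 other genes named Atp5 (Atp5s and Atp5sl). The symbol rule takes in genes that are not subunits: the Ndufaf genes encode factors that help to build complex I, and Ndufa4 and Ndufa4l2 are counted here with complex IV, where the NDUFA4 protein is known to reside.

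The data are 13 RNA-seq libraries. Each subset had 2 of them, apart from mature FL-cDC1s with a single one. Bone marrow of C57BL/6 mice 8 to 14 weeks old was cultured for 8 to 10 days, either with FLT3L at 10 µg/ml (FL-BM culture) or with GM-CSF at 0.5 µg/ml (GM-BM culture), with no gene deleted and no stimulus added that the labels name. FL-BM culture gave mature FL-cDC1s (CD83+) and immature FL-cDC1s (CD83-) from the cDC1 gate, and mature FL-cDC2s (CD83+), immature FL-cDC2s (CD83-) and CD115+ CX3CR1+ cells from the cDC2 gate. The CD115+ CX3CR1+ cells are called cDC2 in the labels, and in the study first non-DC and, in its later sections, pre-cDC2, a precursor of cDC2s. The name non-DC is kept here and stands for the sort gate only. GM-BM culture gave GM-DCs and GM-Macs. The 2 libraries of a subset came from repeated RNA extraction, and whether different cultures or mice lay behind them is not stated, so every p-value below reflects scatter among libraries that could be purely technical. The 6 libraries of the cDC2 gate were deposited together, and so were GM-DC replicate 1 and GM-Mac replicate 1. Immature FL-cDC1s, the mature FL-cDC1 library, GM-DC replicate 2 and GM-Mac replicate 2 were each deposited apart from the others. Whether these sets were processed separately is not stated. Where 2 compared subsets share no set, subset and set cannot be told apart.

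The respiratory chain oxidises NADH at complex I and succinate at complex II, passes the electrons through ubiquinone to complex III and through cytochrome c to complex IV, and pumps protons that ATP synthase, often called complex V, uses to make ATP. Complex II also belongs to the tricarboxylic acid (TCA) cycle, has no subunit encoded in mitochondrial DNA and pumps no protons. Activated dendritic cells and macrophages are known for shifting between oxidative phosphorylation and glycolysis, and succinate handling at complex II is known to bear on macrophage cytokine production. The mitochondrially encoded subunits, 13 genes, had 0 entries in the tables, so the complexes were read from their nuclear genes only.

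The complex II genes gave the one group whose members were called together in the results below, so the 250 bases before the annotated start of those with an entry in the RefSeq promoter table (GRCm38.p6, the build of mm10) are shown, 5′ to 3′ on the strand of the gene. Capitals mark a match to TGCGCA, a part of the NRF1 site that reads the same on both strands. They also mark CCGGAAG, a core of ETS family sites such as those of GABPA, on either strand. The windows are chr13:74350241-74350490 on the minus strand for Sdha, chr4:140961021-140961270 on the plus strand for Sdhb and chr9:50603850-50604099 on the minus strand for Sdhd.
Sdha: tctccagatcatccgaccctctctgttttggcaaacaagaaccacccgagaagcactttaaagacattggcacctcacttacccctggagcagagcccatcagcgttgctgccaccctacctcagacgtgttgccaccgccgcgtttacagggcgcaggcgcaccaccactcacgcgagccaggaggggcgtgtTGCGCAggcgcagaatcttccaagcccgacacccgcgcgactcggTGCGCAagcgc
Sdhb: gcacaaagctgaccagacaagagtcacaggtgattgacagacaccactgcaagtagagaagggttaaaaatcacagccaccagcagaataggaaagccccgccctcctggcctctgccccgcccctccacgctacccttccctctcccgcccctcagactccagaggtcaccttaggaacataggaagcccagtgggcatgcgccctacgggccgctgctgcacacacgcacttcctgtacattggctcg
Sdhd: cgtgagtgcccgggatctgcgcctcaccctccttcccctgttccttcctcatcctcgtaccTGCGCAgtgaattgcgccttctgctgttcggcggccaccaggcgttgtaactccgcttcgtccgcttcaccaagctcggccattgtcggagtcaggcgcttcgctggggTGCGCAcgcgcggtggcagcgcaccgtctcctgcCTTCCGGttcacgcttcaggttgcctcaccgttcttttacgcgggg
Sdha held 2 matches to TGCGCA, which began 56 and 11 bases before the start. Sdhd held 2, at 189 and 80 bases, and 1 to CCGGAAG at 46 bases. Sdhb held 0 of either.

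A promoter was listed for 76 of the 92 genes. TGCGCA stood in the window of 15 of these 76 (19.7%), against 6.66% of the 27025 promoters in the table and 12.3% of the 9127 promoters of genes that reached 1 FPKM in any library. CCGGAAG stood in 12 of 76 (15.8%), against 7.05% of all promoters and 14.6% of those of expressed genes. AAGATGG, a core of the YY1 site, stood in 0 of 76, against 4.53% and 4.38%. A match describes these letters in this window and not a bound site.

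Reads counted in genes ranged from 46042095 to 71330242 per library, and the 92 genes took 0.459% to 1.20% of them. Reads were found for 89 of the 92, and the other 3 (Cox7b2, Cox8b and Cox8c) had 0 reads in all 13 libraries. Marker lists of 10 genes each set the subsets apart: the summed level of macrophage markers was 48140 to 53976 FPKM in non-DCs and 49432 to 83987 FPKM in GM-Macs, against 106 to 4506 FPKM in the other subsets, and that of mature DC markers was 12737 to 23336 FPKM in mature FL-cDC1s, mature FL-cDC2s and GM-DCs, against 354 to 1012 FPKM elsewhere. The 6 cDC1 markers summed to 968 to 1916 FPKM in the 3 FL-cDC1 libraries, and also to 953.6 to 1077 FPKM in GM-DCs, against 47.5 to 555 FPKM in the other libraries. The 6 cDC2 markers summed to 638 and 670.2 FPKM in immature FL-cDC2s and to 54.6 and 75.5 FPKM in mature FL-cDC2s, so the mature cells of the cDC2 gate had a low level of them. Summed markers of other cells were at most 0.114 FPKM for 5 erythroid genes, 0.528 for 3 NK cell genes, 0.829 for 4 mast cell and basophil genes, 1.42 for 3 T cell genes, 1.42 for 4 stroma genes and 10.4 for 6 neutrophil genes in any library. The 4 B cell markers summed to 1.18 to 39.9 FPKM and the 4 pDC markers to 41.4 to 164.6 FPKM. The 3 platelet and megakaryocyte markers summed to 410.1 and 759 FPKM in GM-Macs, against 0.0329 to 18.6 FPKM in the other libraries. FPKM, the unit of all levels below, is the read count scaled by transcript length and by library size, as the authors computed it.

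Transcript length moved with these genes. The length implied by the deposited counts and FPKM had a median of 765 bases over the 89 genes, 57 of them under 1000 bases, against 2663 bases over all 17308 genes with reads, of which 11.7% were under 1000. Genes under 1000 bases took 3.37% to 9.31% of reads in 12 libraries and 13.6% in immature FL-cDC1 replicate 2. GM-Mac replicate 2 had the 9.31%, against 4.75% in GM-Mac replicate 1. In these 2 libraries the respiratory genes stood above their sister library in 80 and 81 of 83 genes, by a median of 1.42 (immature FL-cDC1) and 1.20 (GM-Mac) in log2 counts scaled by TMM factors. All genes under 1000 bases with at least 50 reads in every library shifted likewise, by medians of 1.33 and 0.97. The 32 respiratory genes of 1000 bases or more rose too, by medians of 0.79 and 0.49. All genes of that length moved by medians of -0.05 and -0.11. The cause of the shift was not tested. In non-DCs and immature FL-cDC2s replicate 2 was the lower one, by medians of -0.53 and -0.43 over the 83 genes. Counts and medians over the genes in comparisons with immature FL-cDC1s or GM-Macs are therefore also given without these libraries and with an offset for transcript length.

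**Figure D1:**
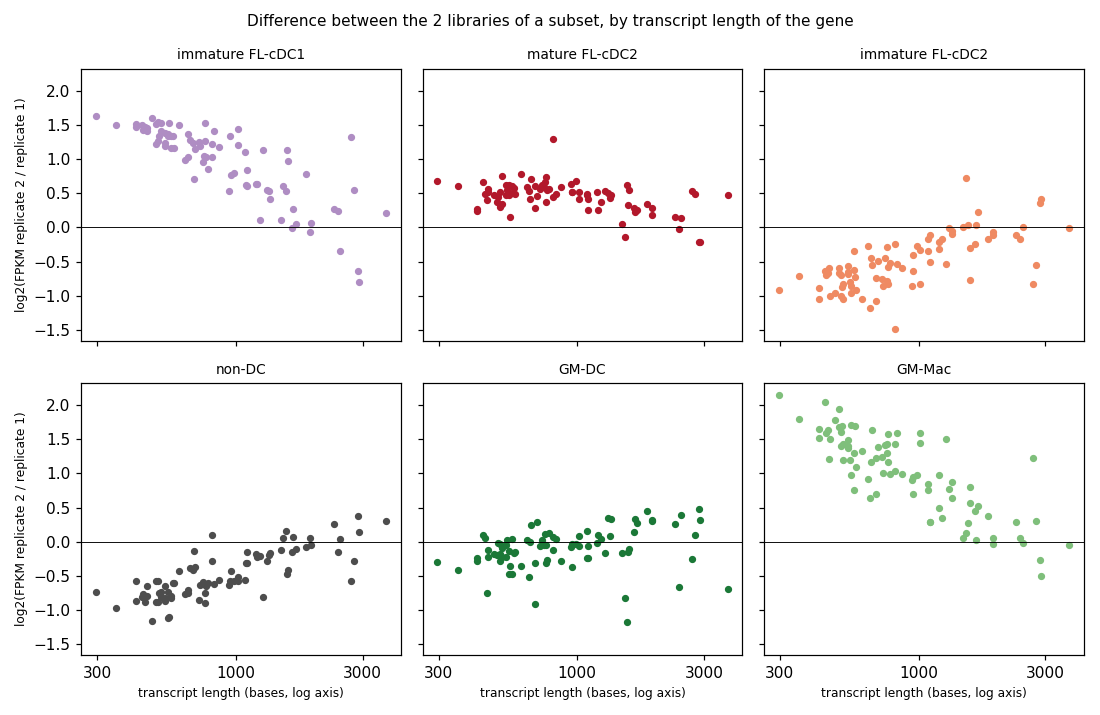
Difference between the 2 libraries of each subset (log2 of replicate 2 over replicate 1 in FPKM, vertical axis) against transcript length in bases (log axis) for the 83 genes with at least 50 reads in every library. Each point is a gene; the 51 genes under 1000 bases have medians of 1.33 in immature FL-cDC1s and 1.39 in GM-Macs, against 0.54 and 0.36 for the 32 longer genes, and medians of -0.69 (immature FL-cDC2s) and -0.70 (non-DCs), against -0.14 and -0.16 for the longer ones.

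Summed over the 92 genes, the level was 5817 FPKM in the mature FL-cDC1 library, 7102 and 12722 FPKM in immature FL-cDC1s, 3475 and 4544 FPKM in mature FL-cDC2s, 6094 and 4777 FPKM in immature FL-cDC2s, 4712 and 3941 FPKM in non-DCs, 5391 and 5647 FPKM in GM-DCs, and 4614 and 8456 FPKM in GM-Macs. Mature FL-cDC2s overlapped with non-DCs, GM-DCs lay inside the range of immature FL-cDC2s, and GM-Macs spanned both that range and the sum of immature FL-cDC1 replicate 1. The libraries are bulk RNA, in which fewer cells of a type and less RNA per cell cannot be told apart. Atp5b and Atp5a1, the beta and alpha subunits of the F1 head, and Uqcrc1, a core protein of complex III, had the highest mean levels. Atp5b was at 731 FPKM in the mature FL-cDC1 library, 643 and 612 FPKM in immature FL-cDC1s, 390.3 and 443 FPKM in mature FL-cDC2s, 521 and 495 FPKM in immature FL-cDC2s, 517 and 539 FPKM in non-DCs, 549 and 678 FPKM in GM-DCs, and 491 and 512 FPKM in GM-Macs. Between the highest and the lowest subset mean the ratio was 1.75 for Atp5b, 1.62 for Atp5a1 and 2.01 for Uqcrc1. The largest ratios within each complex, among genes that reached 10 FPKM, were those of Ndufa6 in complex I (10.3), Sdhc in complex II (3.60), Uqcr10 in complex III (5.45), Ndufa4 in complex IV (10.5) and Atp5e in complex V (7.90), with the highest mean in immature FL-cDC1s for each of them.

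**Figure D2:**
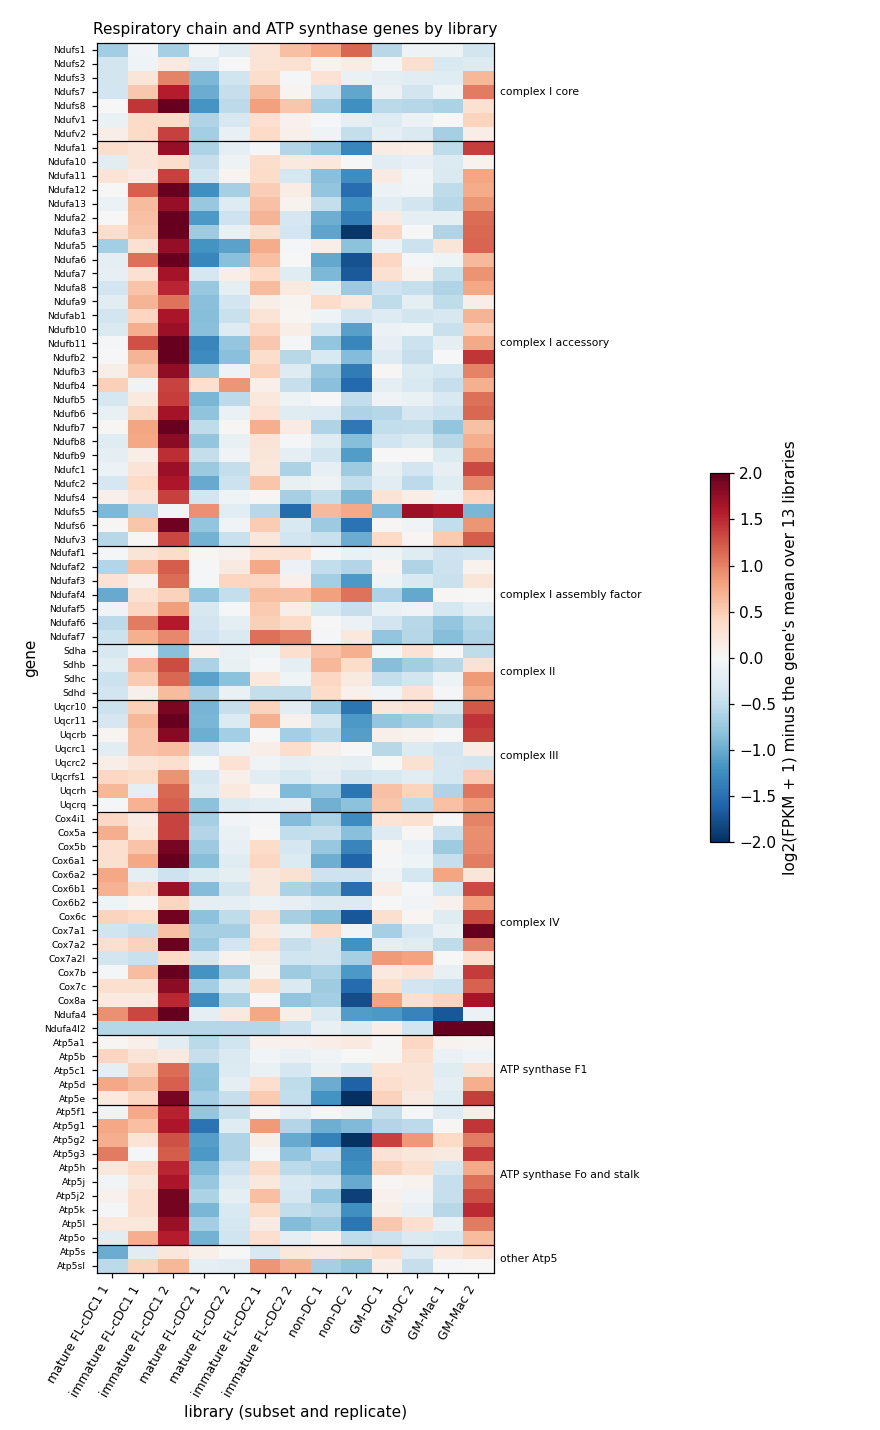
Level of the 88 genes that reached 1 FPKM in any library, by role, as log2(FPKM + 1) minus the gene's own mean over the 13 libraries (colour, limited at 2 either way); columns are libraries by subset and replicate. Immature FL-cDC1 replicate 2 and GM-Mac replicate 2 are high over most rows, and complex II and Ndufs1 are high in non-DCs where most other rows are low.

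Shares within the set do not depend on how libraries are scaled to each other. Complex II made up 16.1% and 17.4% of the summed FPKM of the 92 genes in non-DCs, against 6.42% to 11.4% in the other 11 libraries, so the groups did not overlap. Complex IV went the other way, with 13.03% and 10.1% in non-DCs and 13.8% to 24.0% elsewhere. Complex I took 21.4% to 32.2%, complex III 10.3% to 13.7% and complex V 27.2% to 38.6%. Reads under 1000 bases were 4.85% and 3.38% of the total in non-DCs and 3.37% to 13.6% in the other libraries, and complex IV holds mostly short genes while the complex II genes run from 1089 to 2901 bases. The part of length in these shares was not tested.

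Immature FL-cDC2s were compared with non-DCs to ask what separates the CD83- cells of the cDC2 gate. All 4 complex II genes were lower in immature FL-cDC2s. Of the 87 genes tested with edgeR's quasi-likelihood test and Benjamini-Hochberg adjustment over all genes, 4 were higher and 13 lower at an adjusted p under 0.05, where 23.6% of all 13242 genes were higher and 24% lower. The median log2 fold change was 0.12 over the 87 genes and 0.01 over all genes. By role, 4 of 4 complex II genes, 2 of 8 complex III genes, 2 of 5 F1 genes, 1 of 10 Fo and stalk genes, and 1 core subunit, 2 accessory subunits and 1 assembly factor of complex I were lower.

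Sdhd, a membrane anchor of complex II (Entrez 66925, chromosome 9, 50596340 to 50603849), had 140.2 and 140.1 FPKM in immature FL-cDC2s, against 254 and 209 FPKM in non-DCs. The groups did not overlap, and the fold change was -1.35 on the log2 scale (SE 0.23, adjusted p = 0.0025 in edgeR). Sdhb, the iron-sulfur subunit (Entrez 67680, chromosome 4, 140961271 to 140979198), had 118 and 105 FPKM in immature FL-cDC2s, against 192 and 155 FPKM in non-DCs (log2 fold change -1.27, SE 0.23, adjusted p = 0.0032 in edgeR). Sdha, the flavoprotein that binds succinate (Entrez 66945, chromosome 13, 74322255 to 74350240), had 149 and 199 FPKM in immature FL-cDC2s, against 236 and 259 FPKM in non-DCs (log2 fold change -1.13, SE 0.23, adjusted p = 0.0053 in edgeR). Sdhc, the other membrane anchor (Entrez 66052, chromosome 1, 171129157 to 171150640), had 64.7 and 52.1 FPKM in immature FL-cDC2s, against 74.2 and 63.3 FPKM in non-DCs. Its FPKM overlapped between the groups, and its call (log2 fold change -0.87, SE 0.20, adjusted p = 0.0088 in edgeR) was lost in 5 of 14 alternatives, among them library size alone (-0.23) and leaving out non-DC replicate 1 (-0.76). Sdha lost its call in 2 of 14, library size alone and limma on log2(FPKM + 1), in which 2 of the 4 complex II genes (Sdhb and Sdhd) were called. Sdhb and Sdhd kept their calls in all 14. The TMM factors computed over all 13 libraries were 1.33 and 1.24 for immature FL-cDC2s and 0.838 and 0.829 for non-DCs. The fit of the 6 libraries of the cDC2 gate computed its own factors, which are not given. The fold changes of these genes from it lie below the ratios of FPKM. With library size alone the median of all genes was 0.64 rather than 0.01, and 33 genes were higher and 3 lower. The sign of all 4 complex II genes stayed negative under it.

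Ndufs1, the core subunit of complex I that carries electrons away from the NADH site (Entrez 227197, chromosome 1, 63143592 to 63176822), was lower too, at 33.6 and 43.3 FPKM in immature FL-cDC2s, against 48.6 and 63.3 FPKM in non-DCs (log2 fold change -1.16, SE 0.24, adjusted p = 0.0058 in edgeR). Ndufa9, an accessory subunit near the quinone site, followed at -0.83. Among the F1 and stalk genes Atp5a1 fell by 0.70, Atp5b by 0.68 and Atp5f1, a stalk subunit, by 0.68, and in complex III the Rieske iron-sulfur protein gene Uqcrfs1 fell by 0.63. Atp5b overlapped between the groups in FPKM. With library size alone 3 genes were lower, Sdhb and Sdhd among them. Most of the lower calls named in this paragraph were therefore lost under that setting. Uqcrfs1 lost its call in 10 of 14 alternatives: it changed to 0.007 with library size alone, and its FPKM was 85.0 and 79.7 in immature FL-cDC2s, against 87.6 and 77.0 in non-DCs. Genes that were higher included Ndufs8, a core iron-sulfur subunit (0.96), Ndufa6 (1.12) and Atp5sl (1.05), whose product is also called Dmac2 and takes part in building complex I. Ndufs8 had 89.4 and 74.4 FPKM in immature FL-cDC2s, against 30.9 and 20.8 FPKM in non-DCs, with no overlap. Atp5sl had 18.6 and 16.5 FPKM in immature FL-cDC2s, against 5.75 and 5.18 FPKM in non-DCs. Cell cycle genes moved in the same comparison, as all 10 of 10 proliferation markers were higher in immature FL-cDC2s (1604 and 1692 summed FPKM, against 98.1 and 86.0 in non-DCs), and their part was not tested. Of the 17 called genes, 13 were among the 32 longer (40.6%) and 4 among the 55 shorter than 1000 bases (7.27%). Over all genes 48.7% of the longer and 34.7% of the shorter were called. With a length offset in the fit 4 were higher and 37 lower, all 4 complex II genes among them, where 52.0% of all genes were called. The median over the 87 genes was -0.25 without non-DC replicate 2 and -0.21 without immature FL-cDC2 replicate 1.

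Mature FL-cDC2s were compared with non-DCs in the same fit, with the same non-DC libraries, so both comparisons share their controls. All 4 complex II genes were again lower. In all, 4 of 87 genes were higher and 16 lower, where 26.4% of all genes were higher and 27.1% lower, and the median was -0.04 against 0.07 for all genes. Sdhc had 26.0 and 31.0 FPKM in mature FL-cDC2s, against 74.2 and 63.3 FPKM in non-DCs, with no overlap (log2 fold change -1.48, SE 0.20, adjusted p = 5.9e-04 in edgeR). Sdhb had 77.1 and 109 FPKM in mature FL-cDC2s, against 192 and 155 FPKM in non-DCs (log2 fold change -1.11, SE 0.23, adjusted p = 0.0050 in edgeR). Sdha had 169 and 145 FPKM in mature FL-cDC2s, against 236 and 259 FPKM in non-DCs (-0.87), and Sdhd had 125 and 178 FPKM, against 254 and 209 FPKM (-0.82). Both of these lost the call when either non-DC library was left out, when 2 of the 4 genes (Sdhb and Sdhc) kept it.

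In complex I, 3 of the 7 core subunits were lower and 0 higher. Ndufs1 had 27.5 and 23.9 FPKM in mature FL-cDC2s, against 48.6 and 63.3 FPKM in non-DCs (log2 fold change -1.32, SE 0.24, adjusted p = 0.0027 in edgeR). Ndufs3, another core subunit, fell by 0.95, Ndufv1, which binds NADH, by 0.56, and the accessory genes Ndufa9 by 1.10 and Ndufa10 by 0.60. The assembly factor Ndufaf4 (Entrez 68493, chromosome 4, 24898083 to 24905001) had 1.48 and 2.06 FPKM in mature FL-cDC2s, against 6.49 and 8.04 FPKM in non-DCs (log2 fold change -2.24, SE 0.27, adjusted p = 3.1e-04 in edgeR). Ndufaf4 never reached 10 FPKM and was named after its values were seen. Genes that were higher included Ndufb4, an accessory subunit of the membrane arm, at 31.8 and 47.1 FPKM in mature FL-cDC2s, against 13.7 and 7.90 FPKM in non-DCs (log2 fold change 1.66, SE 0.37, adjusted p = 0.0067 in edgeR), the assembly factor Ndufaf3 (1.05) and Ndufa7 (1.00). Atp5a1 fell by 0.83 and Atp5f1 by 0.75. Of the 20 called genes, 14 were among the 32 longer (43.8%) and 6 among the 55 shorter than 1000 bases (10.9%). Over all genes 54.6% of the longer and 39.8% of the shorter were called. With a length offset 3 were higher and 41 lower, and with library size alone 7 were higher and 11 lower. The median turned to 0.17 without non-DC replicate 1 and to 0.22 without mature FL-cDC2 replicate 1.

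**Figure D3:**
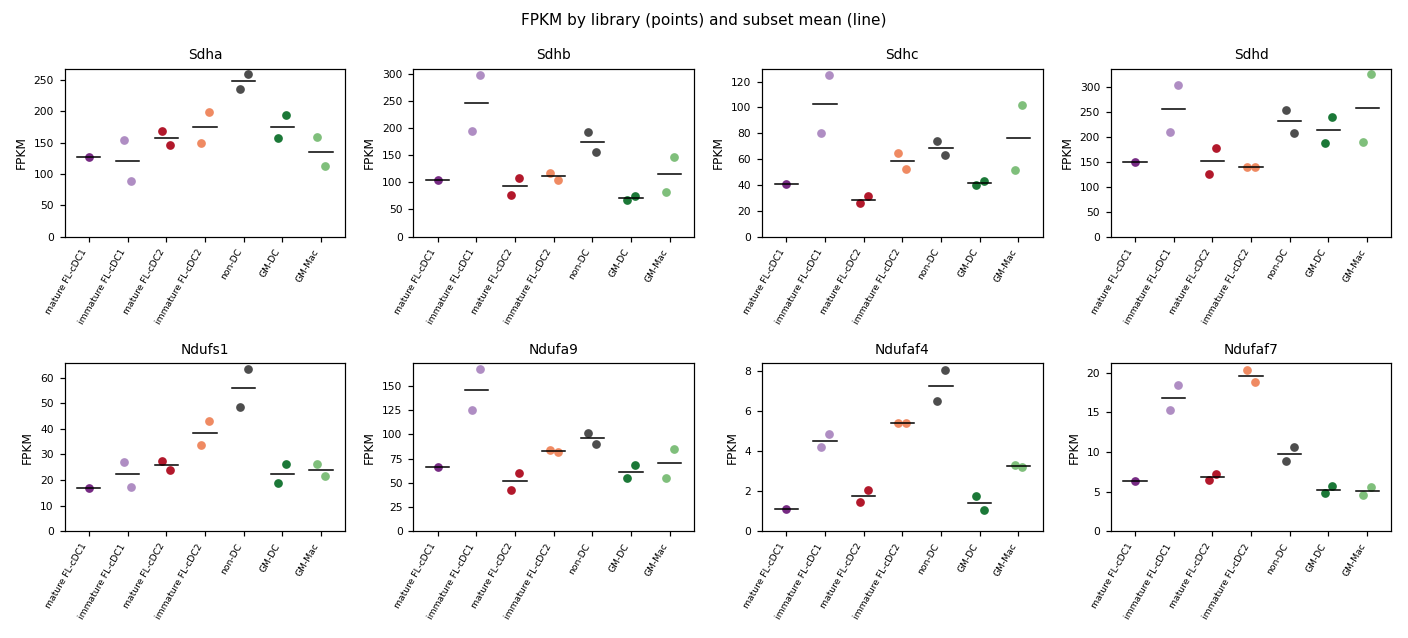
Level in FPKM (vertical axes, starting at 0) of the 4 complex II genes, Ndufs1, Ndufa9, Ndufaf4 and Ndufaf7 in each library (points) with the mean of each subset (line). Sdha and Ndufs1 are highest in both non-DC libraries, at 236 and 259 FPKM and at 48.6 and 63.3 FPKM, and both immature subsets of FL-BM culture have the highest Ndufaf7, at 15.2 to 20.4 FPKM.

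Mature were compared with immature FL-cDC2s for the change that goes with maturation in the cDC2 lineage. Of 87 genes, 3 were higher and 8 lower, where 22.5% of all genes were higher and 24% lower. The median was -0.14, against 0 for all genes, and 0.13 without immature FL-cDC2 replicate 1 or 0.05 without mature FL-cDC2 replicate 1. Of the 43 complex I genes tested, 5 were lower, below the share of all genes that were. Ndufaf7 (Entrez 73694, chromosome 17, 78937106 to 78948052), a methyltransferase that modifies a core subunit during assembly, had 6.46 and 7.20 FPKM in mature FL-cDC2s, against 20.4 and 18.8 FPKM in immature FL-cDC2s, with no overlap (log2 fold change -1.10, SE 0.21, adjusted p = 0.0039 in edgeR). Ndufaf4 had 1.48 and 2.06 FPKM in mature FL-cDC2s, against 5.42 and 5.39 FPKM in immature FL-cDC2s (log2 fold change -1.19, SE 0.26, adjusted p = 0.0074 in edgeR). These 2 genes kept their calls in all 14 alternatives run for each. Ndufs8 (Entrez 225887, chromosome 19, 3908863 to 3912774) had 21.6 and 34.6 FPKM in mature FL-cDC2s, against 89.4 and 74.4 FPKM in immature FL-cDC2s (log2 fold change -1.09, SE 0.28, adjusted p = 0.015 in edgeR). Its call was lost in 3 of 14 alternatives, among them those without immature FL-cDC2 replicate 1 (-0.96) or mature FL-cDC2 replicate 1 (-0.83).

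Ndufb11 (-0.93), Ndufa5 (-1.32), Sdhc (-0.61) and Atp5sl (-0.66) fell as well, each with 5 or 6 of 14 alternatives in which the call was lost. Ndufb4 rose, at 31.8 and 47.1 FPKM in mature FL-cDC2s, against 27.1 and 18.0 FPKM in immature FL-cDC2s, as did Uqcrc2, a core protein of complex III, at 70.7 and 85.7 FPKM against 66.6 and 61.6 FPKM. Their log2 fold changes were 1.24 (SE 0.36, adjusted p = 0.025 in edgeR) and 0.71 (SE 0.19, adjusted p = 0.016 in edgeR), and with library size alone neither passed, at 0.81 and 0.29. How reads on near-identical copies, such as paralogs and processed pseudogenes, were counted is not stated, so the level of a gene with such copies is uncertain. Ndufs5, named after its values were seen, was called higher (2.26) but was scattered within pairs, at 9.76 and 3.88 FPKM in mature FL-cDC2s and 2.87 and 0.957 FPKM in immature FL-cDC2s, and ranged up to 17.7 FPKM in one GM-DC library and 2.04 FPKM in the other. With library size alone, which set the median of all genes to -0.40, 1 member was higher and 20 were lower. The 10 proliferation markers, all lower in mature FL-cDC2s (110 and 118 summed FPKM, against 1604 and 1692), moved with this comparison, and all 10 mature DC markers were higher. Their part in it was not tested.

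Mature FL-cDC1s, a single library, were compared with immature FL-cDC1s in the fit of all 13 libraries, in which that library was assumed to vary like the other subsets. These subsets were deposited apart, so subset and deposited set cannot be told apart here. Of 89 genes, 0 were higher and 7 lower, where 12.6% of all genes were higher and 8.28% lower. At an unadjusted p under 0.05, 1 was higher and 29 lower, against 2880 higher and 2517 lower of all 14936 genes. DESeq2 called 0 higher and 21 lower, where it called 29.3% of all genes in either direction. The median was -1.28, against 0 for all genes, -0.41 without immature FL-cDC1 replicate 2, the library rich in short genes, and -0.53 with a length offset, under which 1 was higher and 21 lower. The count was 2 lower without immature FL-cDC1 replicate 2 and 30 lower without immature FL-cDC1 replicate 1. Of the 7, 3 were complex I assembly factors, 1 a core and 2 accessory subunits of complex I, and 1 was Atp5sl. Markers of other cells moved with this comparison. The B cell marker Cd79a was higher, at 14.8 FPKM in the mature FL-cDC1 library, against 0.330 and 0.168 FPKM in immature FL-cDC1s. The 4 stroma markers summed to 1.42 FPKM in mature FL-cDC1s, against 0 in both immature FL-cDC1 libraries. Of the 10 macrophage markers 4 were higher and 2 lower, with a sum of 1241 FPKM in mature FL-cDC1s, against 4055 and 4506 FPKM. The 10 proliferation markers were all negative in sign, 2 of them called, and summed to 313 FPKM, against 885 and 1345 FPKM. The part of these genes was not tested. Ndufaf6 had 2.61 FPKM in mature FL-cDC1s, against 9.60 and 14.6 FPKM in immature FL-cDC1s (log2 fold change -2.31, SE 0.51, adjusted p = 0.011 in edgeR). Ndufaf4 had 1.10 FPKM, against 4.21 and 4.86 FPKM (log2 fold change -2.12, SE 0.43, adjusted p = 0.0077 in edgeR). Ndufaf7 had 6.39 FPKM, against 15.2 and 18.4 FPKM (log2 fold change -1.48, SE 0.37, adjusted p = 0.019 in edgeR). Ndufaf4 and Ndufaf6 kept their calls in all 11 alternatives run for each, while Ndufaf7 lost it without immature FL-cDC1 replicate 2 (-1.19).

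No library is shared between the 2 maturation comparisons, and only the FL-cDC2 subsets were deposited together. Ndufaf4, Ndufaf7, Ndufs8, Ndufb11 and Atp5sl were lower in both, which is 5 of the 8 genes lower in FL-cDC2s and 5 of the 7 lower in FL-cDC1s. Over all 13242 genes tested in both, 885 were lower in both, which is 27.9% of those lower in FL-cDC2s and 71.6% of those lower in FL-cDC1s. Of the 87 respiratory genes 59 had the same sign in both (67.8%), against 70.3% of all genes, and these shares are near each other. Whether the change differed between the lineages was tested as a contrast: 0 of 89 genes passed, where 1.03% of all genes passed with a higher and 5% with a lower change in FL-cDC2s. At an unadjusted p under 0.05, 8 were higher and 1 lower, against 1055 higher and 1973 lower of all 14936 genes. DESeq2 called 2 higher and 0 lower, where it called 12.6% of all genes in either direction. The median difference was 1.05 over the 89 genes, against -0.0078 over all genes, 0.24 without immature FL-cDC1 replicate 2 and 0.48 with a length offset. The intervals were wide, although the normal quantile used for them makes them too narrow for so few libraries. For Ndufaf4 the change in FL-cDC2s minus that in FL-cDC1s was 0.90 (95% interval -0.11 to 1.90) and for Ndufaf7 it was 0.35 (-0.53 to 1.22), which does not show that the lineages change alike. For Ndufb4, called higher with maturation in FL-cDC2s, the mature FL-cDC1 library had 35.4 FPKM, against 23.9 and 65.5 FPKM in immature FL-cDC1s, and the difference was 1.67 (-0.16 to 3.51).

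**Figure D4:**
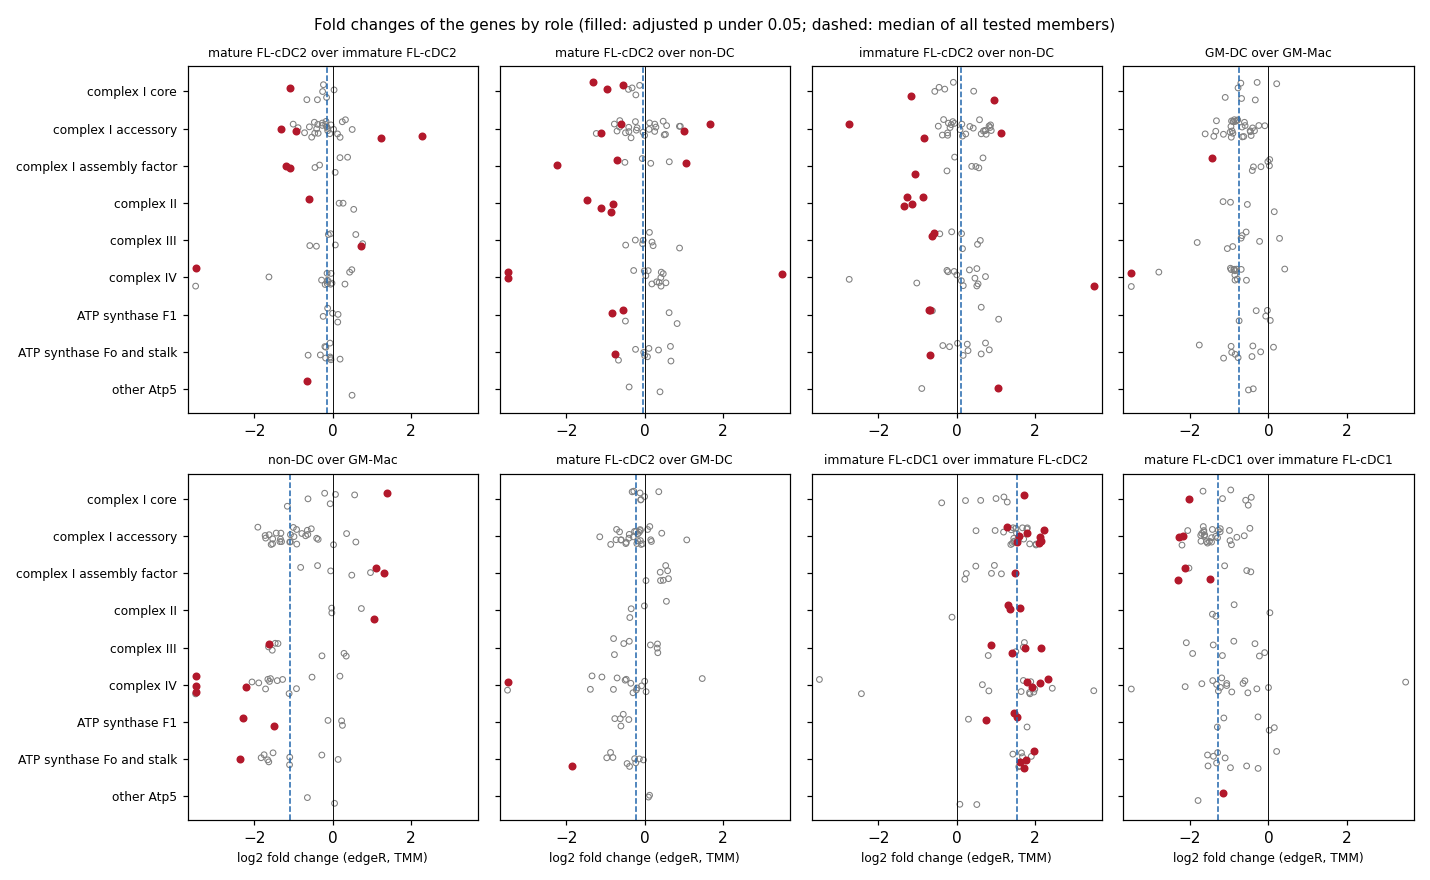
Log2 fold changes of the genes (horizontal axes, values beyond 3.5 drawn at 3.5) by role in 8 comparisons; filled points passed an adjusted p of 0.05 in edgeR and the dashed line is the median of the members tested. The complex II row lies left of 0 in both comparisons with non-DCs, and the medians farthest from 0 are those of the comparisons with immature FL-cDC1s (1.54 and -1.28) and GM-Macs (-0.75 and -1.08).

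Immature FL-cDC1s were set against immature FL-cDC2s, which were deposited apart from them, so subset and deposited set cannot be told apart. Of 89 genes, 28 were higher and 0 lower, where 8.9% of all genes were higher and 11.4% lower. At an unadjusted p under 0.05, 70 were higher and 0 lower, against 2480 higher and 2895 lower of all 14936 genes. DESeq2 called 62 higher and 0 lower, where it called 30.4% of all genes in either direction. The median was 1.54, against -0.02 for all genes, 0.66 without immature FL-cDC1 replicate 2 and 0.62 with a length offset, under which 28 were also higher. The count moved widely: 68 genes were higher without immature FL-cDC1 replicate 1, 1 without immature FL-cDC1 replicate 2, 2 without immature FL-cDC2 replicate 1 and 0 without immature FL-cDC2 replicate 2. Called genes came from every complex: 10 of 43 in complex I, 3 of 4 in complex II, 4 of 8 in complex III, 4 of 17 in complex IV and 7 of 17 in complex V. Genes under 1000 bases had a median of 1.70 among the members and 1.05 among all genes, while longer genes had 0.93 among the members and -0.10 among all genes.

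Cox7b, a small subunit of complex IV, had 30.5 and 82.3 FPKM in immature FL-cDC1s, against 20.5 and 11.6 FPKM in immature FL-cDC2s (log2 fold change 2.34, SE 0.64, adjusted p = 0.027 in edgeR). Ndufb11 had 62.3 and 142 FPKM, against 37.3 and 24.7 FPKM (log2 fold change 2.23, SE 0.52, adjusted p = 0.014 in edgeR). Uqcrb, a subunit of complex III, had 83.01 and 199 FPKM, against 56.0 and 34.6 FPKM (2.16), and Ndufa6 had 60.9 and 154 FPKM, against 42.6 and 27.7 FPKM (2.13). These 4 genes were picked among the largest called increases, and in each of them immature FL-cDC1 replicate 2 was more than 2 times replicate 1. Sdhb, named after its values were seen, had 194 and 298 FPKM in immature FL-cDC1s, against 118 and 105 FPKM in immature FL-cDC2s (log2 fold change 1.63, SE 0.38, adjusted p = 0.015 in edgeR). Sdha, the remaining complex II gene, was not called, at 153 and 88.3 FPKM in immature FL-cDC1s and 149 and 199 FPKM in immature FL-cDC2s. Ndufa4 had 81.2 and 189 FPKM, against 54.8 and 34.3 FPKM (2.12).

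In GM-BM culture GM-DCs, which carry the mature DC markers, were compared with GM-Macs. Of 87 genes, 0 were higher and 2 lower (Ndufa4l2 and Ndufaf4), where 8.71% of all genes were higher and 10.6% lower. At an unadjusted p under 0.05, 0 were higher and 13 lower, against 2071 higher and 2378 lower of all 13083 genes. DESeq2 called 0 higher and 7 lower, where it called 27.7% of all genes in either direction. The median was -0.75, against -0.05 for all genes, 0.10 without GM-Mac replicate 2, when 1 was lower, and -0.27 with a length offset, under which 3 were lower. Without GM-Mac replicate 1, 53 genes were called lower, so the median and the count rest on which GM-Mac library is used. Neither gene reached 10 FPKM, and both were named after their values were seen. Ndufaf4 had 1.76 and 1.09 FPKM in GM-DCs, against 3.31 and 3.21 FPKM in GM-Macs, and did not overlap (log2 fold change -1.44, SE 0.40, adjusted p = 0.0497 in edgeR), but the call was lost in 9 of 14 alternatives. Ndufa4l2, a paralog of Ndufa4 known as a hypoxia-inducible gene, had 0.627 and 0.135 FPKM in GM-DCs, against 5.24 and 7.23 FPKM in GM-Macs (log2 fold change -4.29, SE 0.81, adjusted p = 0.015 in edgeR). That call stood in all 14 alternatives. The 3 platelet and megakaryocyte markers moved with this comparison, at 8.81 and 5.09 summed FPKM in GM-DCs, against 410.1 and 759 FPKM in GM-Macs, as did 9 of 10 macrophage markers, which were lower in GM-DCs, and their part was not tested.

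Non-DCs were compared with GM-Macs, both rich in macrophage markers but from different cultures and separate tables. Of 89 genes, 4 were higher and 8 lower, where 9.29% of all genes were higher and 11.2% lower, and the median was -1.08, against -0.09 for all genes. Without GM-Mac replicate 2 the median was -0.12, with 2 higher and 0 lower, and leaving out either non-DC library left 0 lower. With a length offset the median was -0.080, with 13 higher and 8 lower. The genes that were higher in non-DCs were Sdha, at 236 and 259 FPKM in non-DCs, against 158 and 112 FPKM in GM-Macs (log2 fold change 1.04, SE 0.29, adjusted p = 0.030 in edgeR), Ndufs1, at 48.6 and 63.3 FPKM, against 26.1 and 21.6 FPKM (log2 fold change 1.38, SE 0.28, adjusted p = 0.0089 in edgeR), Ndufaf4 (1.31) and Ndufaf7 (1.09). These 4 were picked by their call, so the gap between the groups in FPKM adds no separate support. Most of the 4 calls were lost when either non-DC library was left out. The 3 platelet and megakaryocyte markers were lower in the same comparison, at 15.5 and 18.6 summed FPKM in non-DCs, against 410.1 and 759 FPKM in GM-Macs, and their part was not tested. The lower genes included Atp5g2, 1 of 3 genes for the c subunit of the Fo ring (Entrez 67942, chromosome 15, 102662868 to 102671047), at 11.2 and 6.90 FPKM in non-DCs, against 40.1 and 62.8 FPKM in GM-Macs (log2 fold change -2.37, SE 0.53, adjusted p = 0.013 in edgeR). Atp5e and Atp5d, the epsilon and delta subunits of F1, were at -2.30 and -1.50, Cox8a at -2.20 and Uqcrq at -1.62. The Sdha call was lost without either non-DC library, at 1.11 and 0.96, or without GM-Mac replicate 2, at 0.87. Of the 4 complex II genes Sdha was the only one called, and 2 of the 4 were below 0, the lowest at -0.029. With a length offset the 4 ranged from 0.36 to 1.33, with Sdha and Sdhb called.

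Mature FL-cDC2s were compared with GM-DCs, the mature cells of either culture. Of 89 genes, 0 were higher and 2 lower, where 7.75% of all genes were higher and 12.9% lower. At an unadjusted p under 0.05, 1 was higher and 5 lower, against 2095 higher and 2935 lower of all 14936 genes. DESeq2 called 0 higher and 3 lower, where it called 26.9% of all genes in either direction. The median was -0.23, against -0.01 for all genes, and -0.038 without mature FL-cDC2 replicate 1. With only the 4 compared libraries in the fit 2 were higher and 9 lower, and with a length offset 5 were higher and 9 lower. Atp5g2 had 13.6 and 19.6 FPKM in mature FL-cDC2s, against 79.5 and 55.8 FPKM in GM-DCs, with no overlap (log2 fold change -1.86, SE 0.52, adjusted p = 0.029 in edgeR), and its call was lost when any of the 4 libraries was left out. Ndufa4l2 had 0 reads in both mature FL-cDC2 libraries and 9 and 41 reads in GM-DCs, which is at least 7.79-fold lower against a floor of 3 reads per library.

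Several subunits exist as paralogs, and the levels of each set are given as a description. Cox4i1, Cox6a1, Cox6b1, Cox7a2 and Cox8a, the forms found in most tissues, were between 11.9 and 609 FPKM in every library. The forms known from heart and muscle, testis or lung were low. Cox4i2 was at most 0.276 FPKM, Cox6b2 at most 1.15 FPKM, Cox6a2 at most 1.29 FPKM and Cox7a1 at most 7.02 FPKM, the last in GM-Mac replicate 2, with 0.431 FPKM in replicate 1. Cox6a2 had 0 reads in both non-DC libraries and 19 to 24 reads in immature FL-cDC2s, at least 6.76-fold higher than the floor in non-DCs. Cox7a1 had 0 reads in mature FL-cDC2s and 9 to 16 reads in immature FL-cDC2s, which is at least 4.92-fold lower in mature cells. Ndufa4l2 was at 5.24 and 7.23 FPKM in GM-Macs and at most 0.627 FPKM in the other libraries.

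Ndufa4 (Entrez 17992, chromosome 6, 11900372 to 11907450) was at 60.9 FPKM in mature FL-cDC1s, 81.2 and 189 FPKM in immature FL-cDC1s, 27.9 and 36.2 FPKM in mature FL-cDC2s, 54.8 and 34.3 FPKM in immature FL-cDC2s, 25.9 and 14.1 FPKM in non-DCs, 13.8 and 12.02 FPKM in GM-DCs, and 9.14 and 29.2 FPKM in GM-Macs. The 7 FL-cDC1 and FL-cDC2 libraries lay above both non-DC and both GM-DC libraries, the 3 FL-cDC1 libraries above the 4 FL-cDC2 libraries, and GM-Macs overlapped with mature FL-cDC2s and non-DCs. Cox7a2l had its highest level in GM-DCs, at 149.6 and 144.1 FPKM, and 51.7 to 109 FPKM in the other 11 libraries. Among the c subunit genes, Atp5g3 was the most abundant in every library (31.5 to 210.3 FPKM). Atp5g2 was above Atp5g1 in both GM-DC libraries, at 79.5 and 55.8 FPKM against 21.6 and 22.7 FPKM, and below it in the mature FL-cDC1 library and both non-DC libraries.

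**Figure D5:**
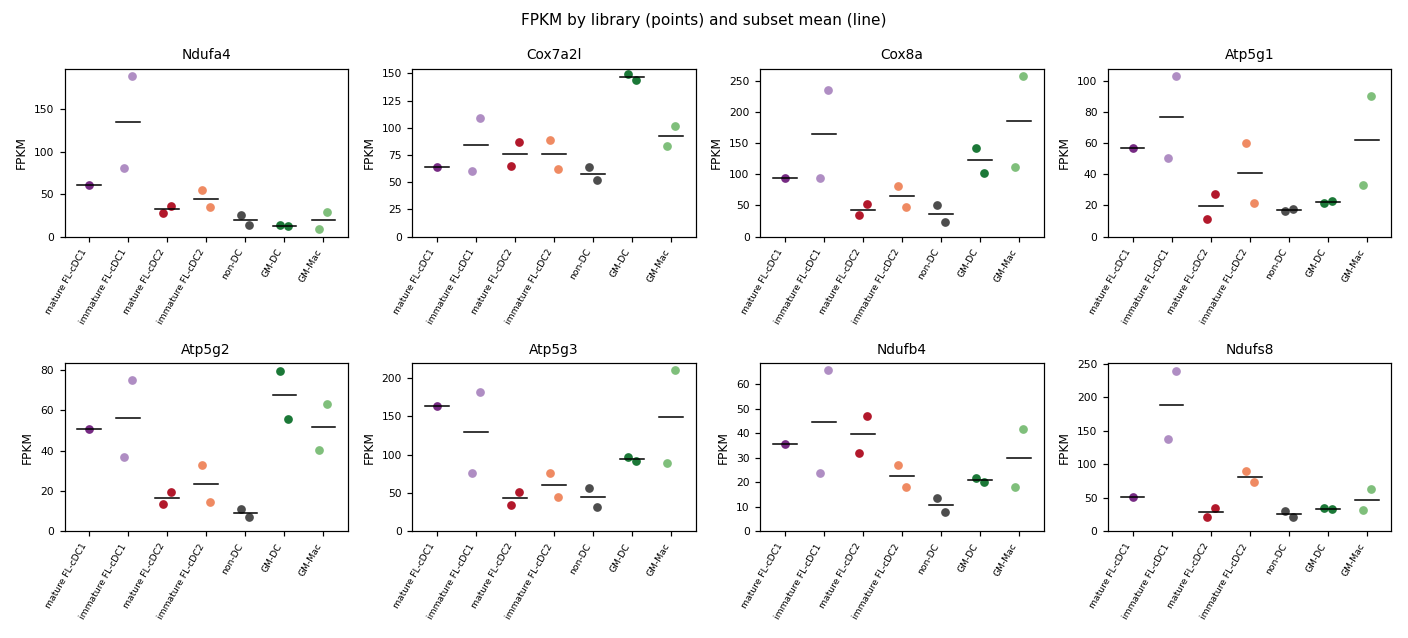
Level in FPKM (vertical axes, starting at 0) of Ndufa4, Cox7a2l, Cox8a, the 3 c subunit genes, Ndufb4 and Ndufs8 in each library (points) with the mean of each subset (line). Cox7a2l is highest in GM-DCs at 149.6 and 144.1 FPKM, and Ndufs8 is highest in immature FL-cDC1s and then in immature FL-cDC2s.

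Other genes of the pathway were counted from lists of the TCA cycle, of assembly factors and of carriers. Of 14 TCA cycle genes, 8 were lower and 0 higher in mature FL-cDC2s than in non-DCs, where 27.1% of all genes were lower and 26.4% higher, with a median log2 fold change of -0.63 against 0.07 for all genes. In immature FL-cDC2s over non-DCs 5 were lower and 3 higher, where 24% of all genes were lower and 23.6% higher (median -0.24, against 0.01). In mature over immature FL-cDC2s 5 were lower and 2 higher, where 24% of all genes were lower and 22.5% higher (median -0.073, against 0), and in mature over immature FL-cDC1s 3 were lower and 0 higher, where 8.28% of all genes were lower and 12.6% higher (median -0.14, against -0.00082). Fh1, fumarase, and Idh3a and Idh2, isocitrate dehydrogenase genes, fell with maturation in both lineages: Idh3a had 7.34 and 7.69 FPKM in mature FL-cDC2s, against 59.1 and 66.1 FPKM in immature FL-cDC2s, and 14.1 FPKM in mature FL-cDC1s, against 58.5 and 53.8 FPKM in immature FL-cDC1s. Their log2 fold changes in the 2 lineages were -2.64 and -2.07 for Idh3a, and -2.32 and -1.56 for Idh2. Of 30 other assembly factors, 3 rose and 3 fell in mature over immature FL-cDC2s, both below the 22.5% and 24% of all genes (median -0.076). Sdhaf1, a complex II assembly factor, rose by 2.58 on the log2 scale, at 82.3 and 114 FPKM in mature FL-cDC2s, against 24.0 and 20.1 FPKM in immature FL-cDC2s, and by 2.46 in FL-cDC1s, while Sco2, a copper chaperone of complex IV, fell by 2.03 in FL-cDC2s. Of the 10 genes of cytochrome c and mitochondrial carriers, 0 were higher and 6 lower in immature FL-cDC2s than in non-DCs (median -0.64), where 23.6% of all genes were higher and 24% lower. In immature FL-cDC1s over immature FL-cDC2s 6 were higher and 1 lower (median 0.90), where 8.9% of all genes were higher and 11.4% lower, the 6 including cytochrome c itself (Cycs, 2.39).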

How the data were processed

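Bone marrow cultures of C57BL/6 mice were sorted and sequenced after amplification with a low-input kit that uses PCR, marks no strand and has no molecular identifiers. The deposited read counts are raw counts per gene, 46042095 to 71330242 per library. Intervals use the standard errors of the fit, which cover the scatter among libraries as well as counting error. They were built with a quantile of the normal distribution, which takes no account of the few libraries and makes them too narrow. The deposited FPKM values were computed by the authors per gene and library. For the aligner the sources differ: HISAT is given in the study's methods, STAR 2.6.0c in the submitters' processing notes, which also list HTSeq, StringTie 1.3.4d and the mouse build mm10. All 26 value columns of the 6 tables were used.

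Counts were tested with edgeR 4.0.16 (filterByExpr, TMM, quasi-likelihood test, Benjamini-Hochberg adjustment over all genes, threshold 0.05) in R 4.3.3. The fit held the 6 libraries of the cDC2 gate for its comparisons, the 4 GM-BM libraries for theirs, and all 13 libraries for comparisons across gates or cultures. Standard errors were taken from each fold change and its F statistic. DESeq2 1.42.0, limma 3.58.1 on log2(FPKM + 1) and log2(FPKM + 0.1), RLE factors, library size alone, no filter, a minimum of 100 reads, a replicate block and leaving out each library were alternatives. A length offset, a crossed block and leaving out immature FL-cDC1 replicate 2 with GM-Mac replicate 2 were added after seeing the data. The edgeR procedure was tested on simulated counts with the same spread in every fit and no effect of length. The coefficient of variation estimated from the data was 25.8% in the cDC2 gate fit, near the simulated one. It was larger in the GM-BM fit (38.3%) and the fit of 13 libraries (35.9%), which the simulation therefore did not match. For genes at 0 reads in a group, folds are bounds against a floor of 3 reads per library.

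Genes were named in a comparison when among the 10 largest changes in each direction with an adjusted p under 0.05 and an average level of 10 FPKM or more where they were higher; paralog sets, the 3 most abundant members and the member of each complex with the largest ratio between subset means were named by level. The members and lists were chosen with earlier results of these data known. Promoter sequences and coordinates are from RefSeq (GRCm38.p6), to which all 92 genes matched by gene ID.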

Additional observations from a re-analysis of the deposited data

Results flagged for a closer look

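The change with maturation differed between FL-cDC2s and FL-cDC1s for 2 genes of the pathway lists, neither of them a subunit, by the contrast tested in the fit of all 13 libraries. Both were lower, which is 2 of 67 tested genes of the lists (2.99%), against 5% of all genes. Fh1, which encodes fumarase of the TCA cycle, had a change in FL-cDC2s minus that in FL-cDC1s of -2.06 on the log2 scale (SE 0.37, adjusted p = 0.010 in edgeR). It had 12.5 and 14.6 FPKM in mature FL-cDC2s, against 179.7 and 138 FPKM in immature FL-cDC2s, and 45.6 FPKM in the mature FL-cDC1 library, against 92.1 and 93.4 FPKM in immature FL-cDC1s. Myc, a transcription factor known to drive growth and mitochondrial genes, had a difference of -3.23 (SE 0.36, adjusted p = 0.0011 in edgeR). It had 1.94 and 2.25 FPKM in mature FL-cDC2s, against 90.3 and 91.6 FPKM in immature FL-cDC2s, and 24.2 FPKM in the mature FL-cDC1 library, against 97.0 and 68.1 FPKM in immature FL-cDC1s. Both genes were lower in the mature cells of both lineages, and 1 library stands for mature FL-cDC1s. That library was deposited apart from immature FL-cDC1s, while the FL-cDC2 subsets were deposited together.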

How the results depend on the processing

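Counts below are of the respiratory genes. Of all genes, in either direction, DESeq2 called 12.6% to 56.0% and the length offset 8.50% to 57.7%, depending on the comparison. The median over all genes moved by up to 0.63 (log2) with library size alone, and results that rest on immature FL-cDC1s or GM-Macs moved most with the libraries used. The cause was not tested except where the setting itself removes samples or genes.

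In mature over immature FL-cDC2s, library size alone gave 1 higher and 20 lower with a median of -0.57. Limma on log2(FPKM + 1) gave 1 and 24 (-0.53) and with 0.1 as pseudocount 1 and 24 (-0.55). The length offset gave 9 higher, the fit of all 13 libraries 1 higher and 2 lower, and the replicate block 3 lower. In mature FL-cDC2s over non-DCs, higher genes numbered 7 with library size alone, 8 with either pseudocount, 2 with no filter, 2 with the replicate block and 0 with all 13 libraries, where 8 were lower. The length offset gave 41 lower (median -0.49). In immature FL-cDC2s over non-DCs, library size alone gave 33 higher and 3 lower (median 0.76), limma with 1 gave 35 and 3 (0.69), with 0.1 it gave 34 and 4 (0.76), the length offset gave 37 lower (-0.46) and all 13 libraries gave 2 higher and 7 lower. The log2 ratio of the summed FPKM, 0.33, was 0.59 as a difference of mean log2(FPKM + 1). Uqcrfs1 reversed to 0.0070 with library size alone, 0.0032 with pseudocount 1 and 0.0032 with 0.1.

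In GM-DCs over GM-Macs, DESeq2 gave 7 lower and the replicate block 5, while library size alone, RLE factors, no filter and both limma fits gave 1. In non-DCs over GM-Macs, lower genes numbered 29 with DESeq2, 16 with limma and 0.1, 5 with only the compared libraries, 4 with the replicate block and 2 without both libraries of largest summed FPKM (median -0.14). The length offset gave 13 higher (median -0.080). In mature FL-cDC2s over GM-DCs, lower genes numbered 1 with the minimum of 100 reads, 1 with the replicate block and 4 with limma and 0.1. The length offset gave 5 higher and 9 lower, only the compared libraries 2 and 9, and leaving out both libraries of largest summed FPKM 2 and 6.

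In immature FL-cDC1s over immature FL-cDC2s, higher genes numbered 62 with DESeq2, 65 with the crossed block, 11 with library size alone, 17 with only the compared libraries and 9 without both libraries of largest summed FPKM (median 0.69). Limma gave 14 higher and 1 lower with either pseudocount, and the length offset a median of 0.62. In mature over immature FL-cDC1s, lower genes numbered 21 with DESeq2, 4 with RLE factors and 3 without both libraries of largest summed FPKM. The length offset gave 1 higher and 21 lower, and limma 1 and 14 with either pseudocount. For the difference in maturation change, DESeq2 gave 2 higher, limma 1 lower with either pseudocount, and leaving out both libraries a median of 0.19.

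Leaving out 1 library at a time gave these ranges. In mature over immature FL-cDC2s 0 to 4 were higher and 2 to 7 lower, with medians of -0.39 to 0.13. In mature FL-cDC2s over non-DCs 1 to 4 were higher and 7 to 15 lower (-0.37 to 0.22). In immature FL-cDC2s over non-DCs 0 to 7 were higher and 5 to 11 lower (-0.25 to 0.35). In GM-DCs over GM-Macs 1 to 53 were lower (-1.21 to 0.10). In non-DCs over GM-Macs 0 to 2 were higher and 0 to 34 lower (-1.57 to -0.12). In mature FL-cDC2s over GM-DCs 0 to 1 were lower (-0.51 to -0.038). In immature FL-cDC1s over immature FL-cDC2s 0 to 68 were higher (0.66 to 2.08). In mature over immature FL-cDC1s 0 to 1 were higher and 2 to 30 lower (-1.74 to -0.41). For the difference in maturation change 0 to 1 were higher (0.24 to 1.60).

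Of 822 alternative values for 58 named results, 585 kept their direction and call, 234 kept the direction and lost the call, and 3 reversed. Deviations of equal replicate numbers correlated at -0.13 to 0.25 between subsets. This cannot show whether the numbers pair the libraries, whose origin is not stated. The unnumbered mature FL-cDC1 library allowed no block.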

Other observations

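Sco2, which delivers copper to complex IV, had 1.09 and 1.10 FPKM in mature FL-cDC2s, against 7.69 and 4.50 FPKM in immature FL-cDC2s, and 1.86 and 2.43 FPKM in GM-DCs, against 7.20 and 9.07 FPKM in GM-Macs, with no overlap in either pair. Its log2 fold changes were -2.03 and -2.17. Sdhaf1, the complex II assembly factor, moved the other way in GM-BM culture too, at 43.5 and 36.8 FPKM in GM-DCs, against 8.66 and 10.96 FPKM in GM-Macs (log2 fold change 1.78). Both genes were chosen after their values were seen.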
